A study of Mus musculus with 24 samples.

Results

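The genes described here are the 7 mouse genes that write and remove cytosine methylation in DNA: the methyltransferases Dnmt1, Dnmt3a and Dnmt3b, the Dnmt1 cofactor Uhrf1, and the methylcytosine dioxygenases Tet1, Tet2 and Tet3. They were taken by gene symbol from a count table of 55487 distinct Ensembl genes, and all 7 were among the 23059 genes that passed a filter on low counts. Bulk RNA sequencing was done on 24 libraries of LSK cells, the lineage-negative, Sca-1-positive, KIT-positive fraction that holds blood stem cells and early progenitors, in 6 groups of 4. The labels name the sorted cells LSK, whereas the series' design text names lineage-negative, KIT-positive progenitors and counts the replicates as biological.

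Newborn cells, at postnatal day 0 (P0), came from liver, and cells at P28 came from bone marrow, so age and tissue cannot be told apart. The mice were either wild type (WT) or carried MLL::ENL (ME), a human leukaemia fusion of the MLL histone methyltransferase with ENL, in a Tet-off model in which doxycycline withdrawal turns the transgene on. At P0 there were WT mice and mice with ME induced at E10.5 (E for embryonic day). At P28 there were WT mice, mice with ME induced at E10.5, mice with ME induced at P0, and a group whose labels add "RLT Vav Txp" to ME induced at E10.5. That phrase is not expanded in the labels and is used here only as a name (RLT Vav Txp ME). The promoter that drives the transgene is not given in the sources used here, and the human transgene itself was not analysed here.

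DNA methylation in mammals lies mostly on cytosines of CG dinucleotides. Replication leaves the new strand bare. UHRF1 binds the resulting half-methylated sites and brings DNMT1, which copies the pattern, so this pair maintains methylation in dividing cells. DNMT3A and DNMT3B place new methyl groups where there were none. The TET enzymes oxidise methylcytosine as the first step of its removal, using iron and 2-oxoglutarate. In blood, DNMT3A and TET2 are best known as genes whose loss lets stem cell clones expand, and DNMT1 is needed for stem cells to keep renewing.

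Levels are given as CPM, the usual depth-scaled read count, after TMM scaling of library totals. Totals ran from 31233688 to 89774511 counts, and each of the 7 genes had at least 518 counts in every library. Replicates of a group correlated with Pearson's r of at most 0.9908, so no library was taken as a repeat of another. The sort genes Kit and Ly6a (Sca-1) were detected in all groups, at 688 ± 72.1 and 296 ± 30.6 CPM (SD, n = 4) in P28 WT. Kit was spread more widely among newborn libraries, from 169 to 1451 CPM for WT (780 ± 536) and from 453 to 1360 for ME (866 ± 458). Newborn Ly6a was lower than in P28 WT, averaging 139 ± 61.6 CPM for WT and 93.8 ± 22.5 for ME. The part of this spread in the P0 results was not tested. Among P0 libraries, those numbered 1 in the WT and ME groups stood apart: their summed erythroid markers were 469 and 223 CPM, against 2867 to 8826 CPM in the other 6. The RLT Vav Txp ME libraries held 622 to 2598 CPM of the 7 macrophage markers, against 42.1 to 68.9 CPM in P28 ME induced at E10.5, and all 7 exceeded 3 counts in at least 1 library of either group. Their 7 LSK markers summed to 2119 to 3168 CPM, against 4564 to 5315 CPM.

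Per kilobase of annotated exon, the maintenance pair was the most abundant by median and the TET genes the least. The median over the 24 libraries was 42.3 CPM per kb for Uhrf1, 32.2 for Dnmt1, 22.7 for Dnmt3b, 6.69 for Dnmt3a, 2.07 for Tet1, 2.05 for Tet3 and 1.21 for Tet2. In all 24 libraries the 4 methylation genes lay above all 3 TET genes, and Dnmt3b lay above Dnmt3a. Uhrf1 lay above Dnmt1 in 23 of 24 libraries, and both lay above Dnmt3b in 20, while Dnmt3b ranked first in 2. The order within the TET genes was less fixed: Tet1 lay above Tet2 in 20 libraries and Tet3 lay above Tet2 in 21. All these orders depend on the length used, the union of annotated exons (16.6 kb for Dnmt3a and 5.11 kb for Dnmt3b). In counts not divided by length, the log2 ratio of Dnmt3b to Dnmt3a ran from -0.43 to 0.65. That of Uhrf1 to Dnmt1 ran from -0.83 to 0.65.

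**Figure D1:**
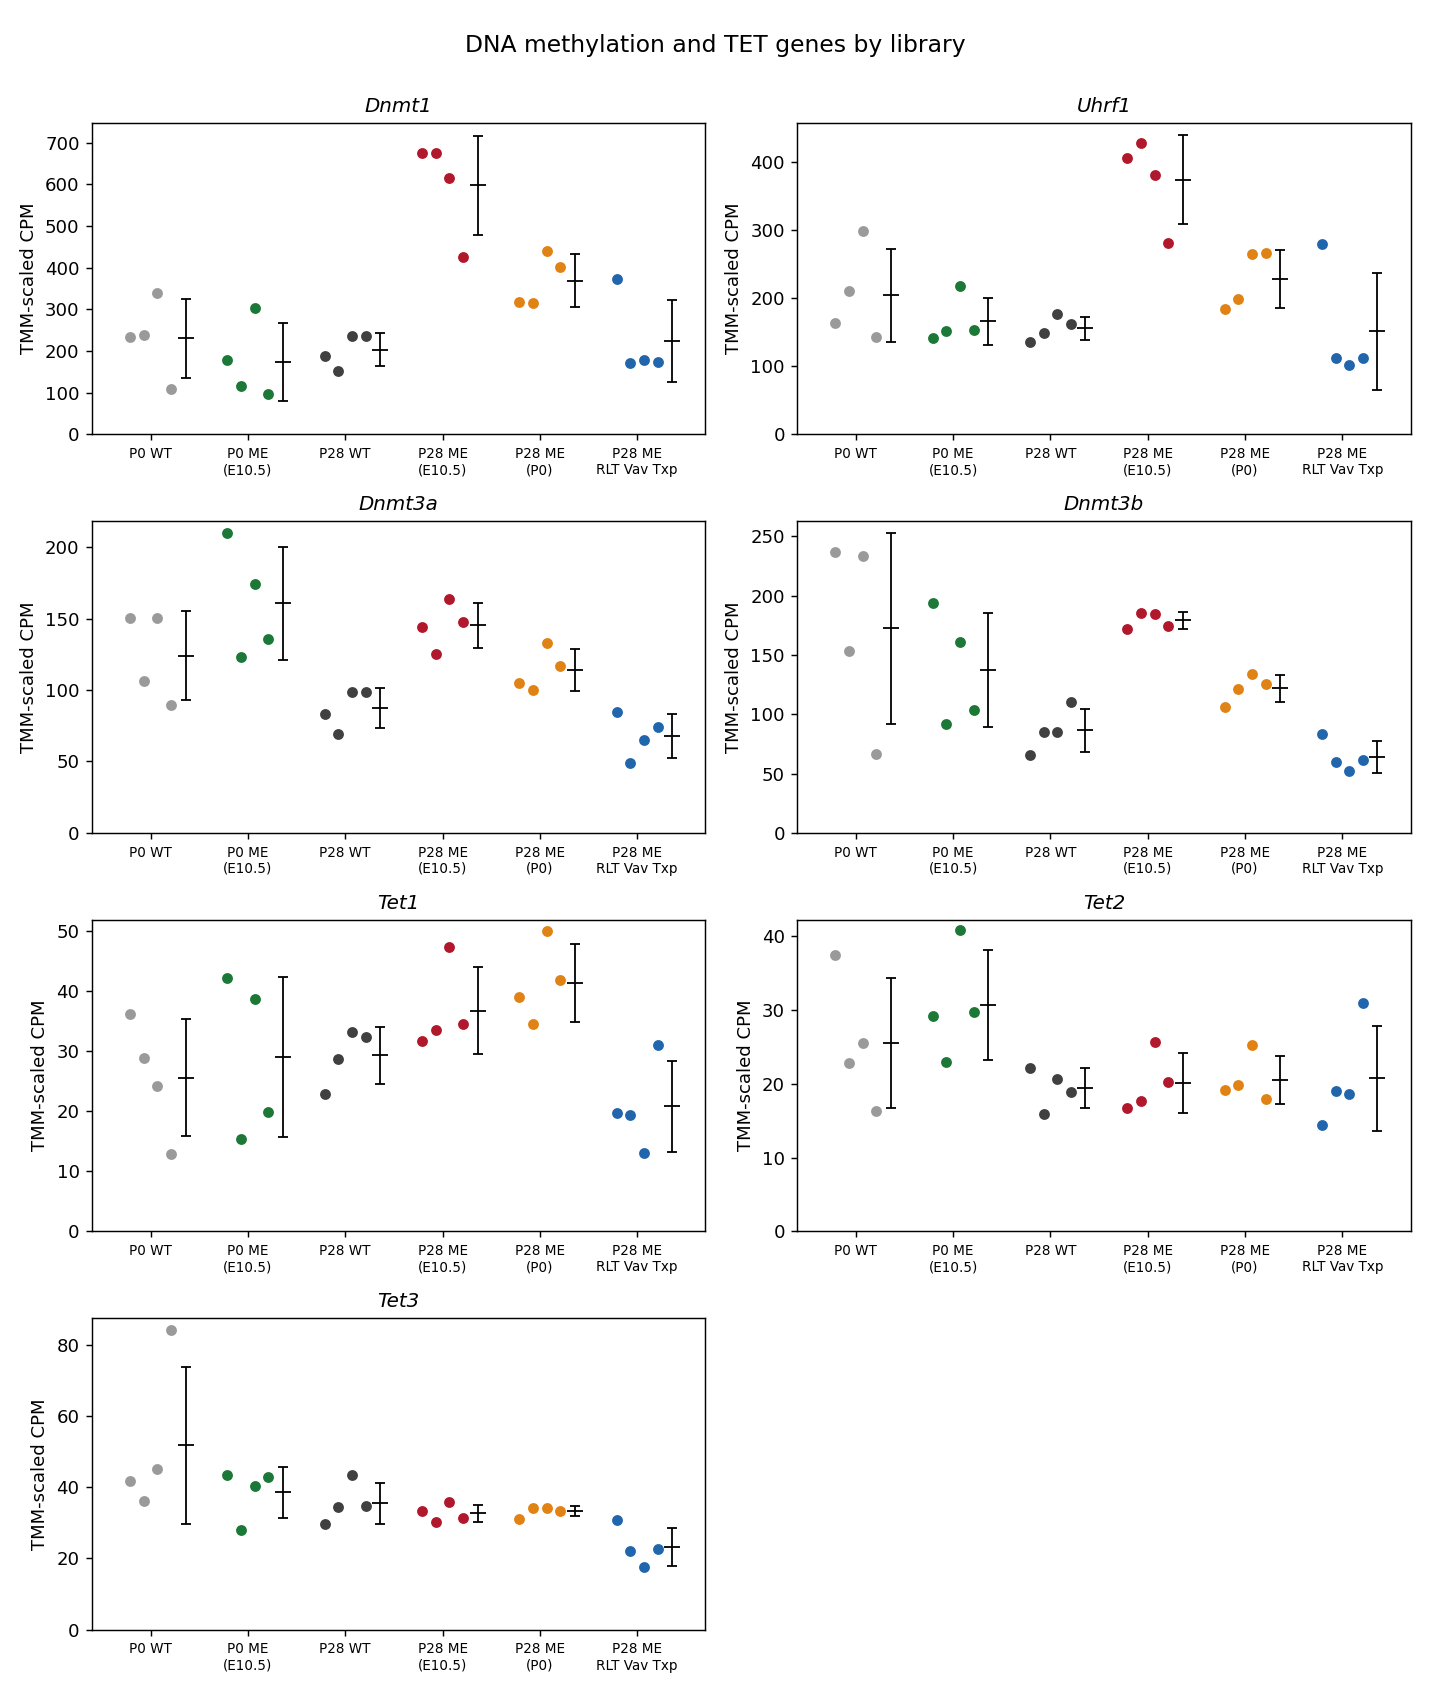
Each panel shows 1 gene, with the TMM-scaled CPM of every library as a point and the mean ± SD of each group of 4 as a dash with error lines. The panels for Dnmt1 and Uhrf1 peak in P28 ME induced at E10.5 (598 and 374 CPM on average), the panel for Dnmt3a is highest on average in P0 ME (161 CPM), and the Tet2 group means stay between 19.4 and 30.7 CPM.

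At P28 the RNA of the 4 methylation genes was higher in ME induced at E10.5 than in WT. In P28 ME induced at E10.5 against P28 WT, 4 of the 7 genes rose (Dnmt1, Uhrf1, Dnmt3a and Dnmt3b), where 12.3% of all tested genes were called in either direction and 7.82% rose. The same 4 had groups that did not overlap, as did 28.2% of all genes (16.6% higher). The median log2 fold change over all 7 was 0.74, beside a median of -0.10 over all tested genes. A gene was called when its Benjamini-Hochberg adjusted p from edgeR's quasi-likelihood test, over all tested genes, was under 0.05. Neutrophil markers summed to 841 to 1569 CPM in this ME group and 474 to 707 CPM in WT, and lymphoid markers to 447 to 634 and 279 to 373 CPM, and their part was not tested. Because this is bulk RNA, fewer cells of a type and less RNA per cell cannot be told apart in any of these comparisons.

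In P0 ME against P0 WT, edgeR called 0 of the 7, with 0 at an unadjusted p under 0.05 and 0 by DESeq2 and by limma voom. EdgeR called 0.642% of all genes there. The share of all genes at an unadjusted p under 0.05 is not given here for any comparison. The median of the 7 was -0.30, beside -0.01 over all genes, and no gene's groups were apart, against 3.74% of all genes. For the 2 effects set against each other (ME effect at P28 minus ME effect at P0), 2 of the 7 were called higher, Dnmt1 and Uhrf1, where 0.72% of all genes were called and 0.468% were higher.

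For ME induced at P0 against WT at P28, edgeR called 0 of the 7 (1.57% of all genes were called), with 2 at an unadjusted p under 0.05, 0 by DESeq2 and 3 by limma voom. Fitted on these 8 libraries alone, edgeR called 4. Over all genes, limma voom called 2718 higher and 2296 lower of 23059. The fit on the 8 libraries called 2575 higher and 2621 lower of 18601. The groups of 4 genes did not overlap, all higher (Dnmt1, Uhrf1, Dnmt3a and Tet1), as did those of 24.8% of all genes in either direction and 14.4% higher. Against ME induced at E10.5, edgeR called 0 of the 7 (0.0477% of all genes), with 2 at an unadjusted p under 0.05, 0 by DESeq2, 4 by limma voom and 3 in an edgeR fit on these 8 libraries alone. Over all genes in this comparison, limma voom called 764 higher and 1569 lower of 23059. The fit on the 8 libraries called 528 higher and 619 lower of 18067. There the groups of 2 genes were apart, Uhrf1 and Dnmt3b, both lower with induction at P0 (11.8% of all genes in either direction and 7.18% lower).

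RLT Vav Txp ME against P28 WT gave 0 called genes of 7 by edgeR (4.12% of all genes), with 1 at an unadjusted p under 0.05 (Tet3), 0 by DESeq2 and 1 by limma voom. Over all genes, limma voom called 920 higher and 533 lower of 23059. No gene's groups were apart, against 11.5% of all genes. Against P28 ME induced at E10.5, the 4 methylation genes fell in RLT Vav Txp ME, where 17.9% of all genes were called and 9.38% fell. Groups were apart for these 4 and for Tet1, all lower (25.7% of all genes in either direction and 14.2% lower). The median of the 7 was -1.09, beside 0.12 over all genes. These comparisons share libraries: P28 WT serves in 3 contrasts with an ME group, and P28 ME induced at E10.5 in 3 at P28, so their values stand side by side and are not independent.

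With age and tissue, 1 of the 7 fell from P0 to P28 in WT, Dnmt3b (7.68% of all genes were called and 4.56% fell), although its groups overlapped. No gene's groups were apart there, against 9.27% of all genes. In ME induced at E10.5, 2 of the 7 rose from P0 to P28, Dnmt1 and Uhrf1 (18.2% of all genes were called and 9.79% rose), and the groups of both were apart, as were those of 25.4% of all genes (14.4% higher). Marker sums also moved with age and tissue. In ME, neutrophil markers summed to 642 to 30249 CPM at P0 and 841 to 1569 CPM at P28, erythroid markers to 223 to 7286 and 266 to 516, macrophage markers to 133 to 1323 and 42.1 to 68.9, and LSK markers to 2243 to 4995 and 4564 to 5315. In WT the same sums were 731 to 14429 and 474 to 707 CPM, 469 to 8826 and 303 to 395, 201 to 1271 and 59.7 to 95.4, and 2297 to 4826 and 4450 to 5090. Their part in the results was not tested. No TET gene was called in any of the 9 comparisons by edgeR in the fit over all 24 libraries. Other edgeR fits called Tet1 or Tet3 in some P28 comparisons, as given with those genes below.

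**Figure D2:**
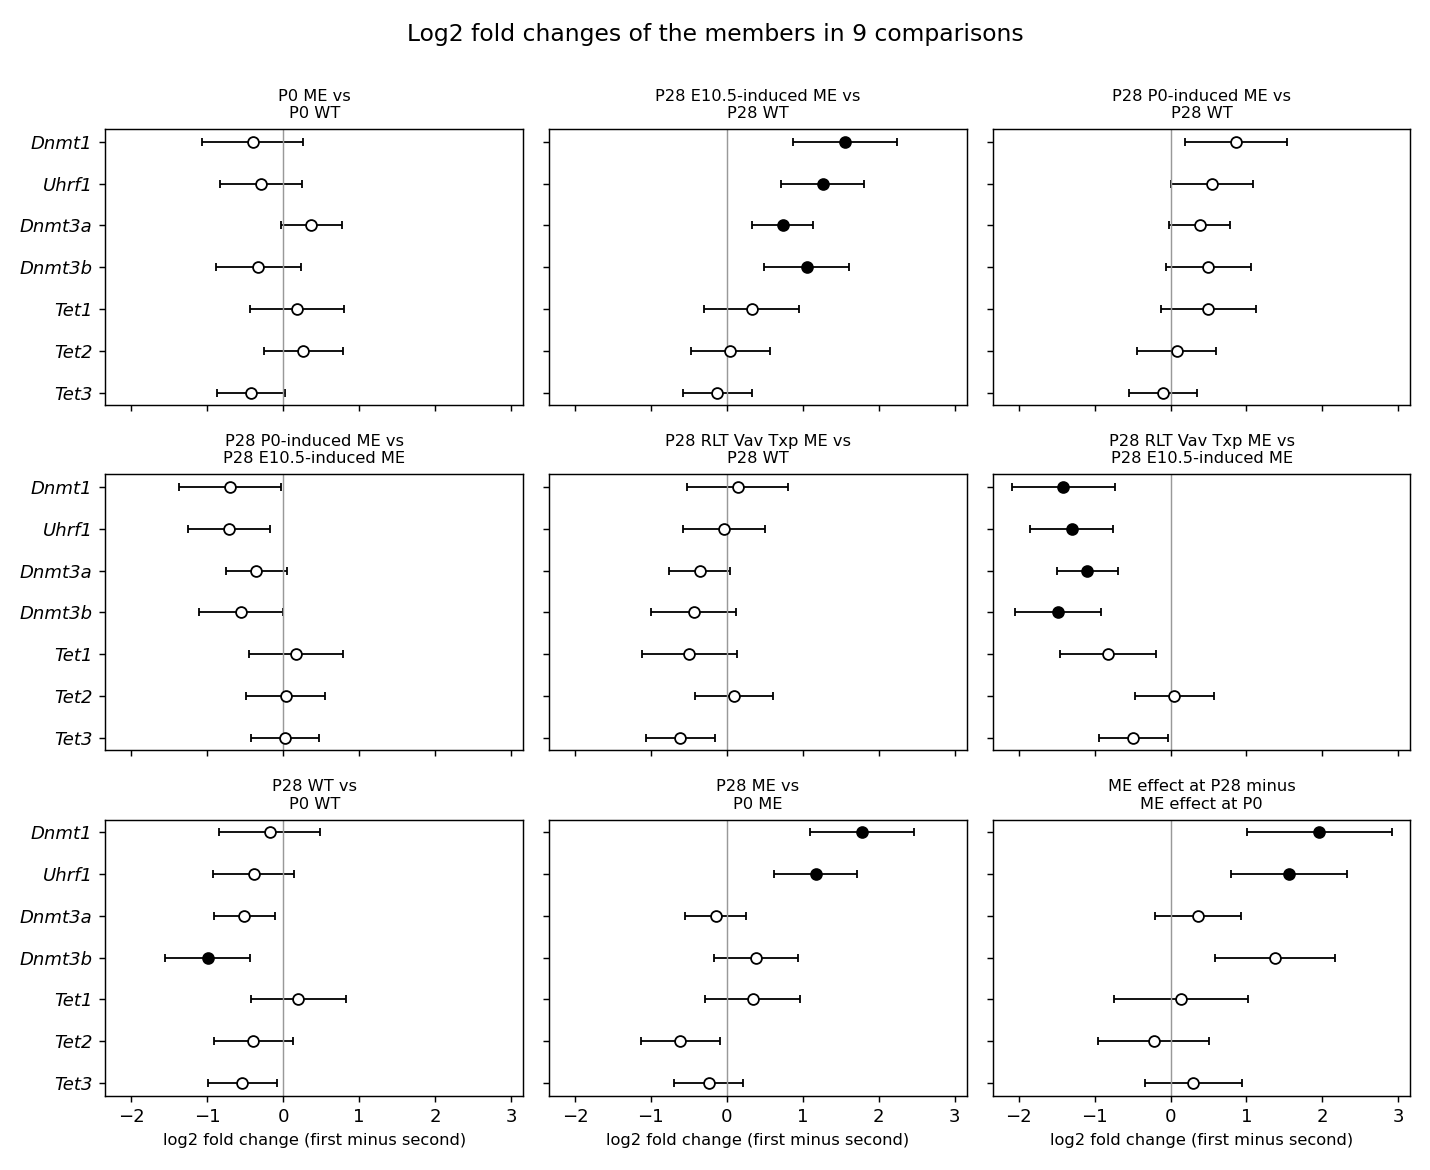
Log2 fold changes of the 7 genes in the 9 comparisons, with 95% confidence intervals; filled points were called at an adjusted p under 0.05. The called points belong to Dnmt1, Uhrf1, Dnmt3a and Dnmt3b, and the longest positive shift is that of Dnmt1 in the difference of ME effects (1.96).

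Dnmt1 lies on the minus strand of chromosome 9 (chr9:20907209-20959888, GRCm38) and Uhrf1 on the plus strand of chromosome 17 (chr17:56303321-56323486). The sequences below are shown because, among the 12 promoter windows of the 7 genes in the RefSeq table (GRCm38.p6; 250 bases before to 50 after each start), only 1 window of each of these genes held letters of the E2F motif, the motif of the factors that drive S phase genes. Capitals mark the match. In the first and second Dnmt1 stretches the capitals are the reverse complement of TTCGCGC.
Dnmt1, chr9:20952824-20952853, minus strand: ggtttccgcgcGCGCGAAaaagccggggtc
Dnmt1, chr9:20952763-20952792, minus strand: gcaagatgccaGCGCGAAcagctccagccc
Dnmt1, chr9:20952574-20952603, minus strand: gcgcggggcagcgtTTGGCGCgggctgtgc
Uhrf1, chr17:56304118-56304147, plus strand: ccgagtcgggtTTCGCGCgcccaggcgtct

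The letters TTCGCGC and TTGGCGC were searched on both strands, and neither string contains the other or another motif searched. TTCGCGC was found in 1.59% and TTGGCGC in 2.45% of all 32851 windows of 300 bases, and at least 1 of them in 3.89%. The Dnmt1 window (chr9:20952574-20952873) held 3 matches and the Uhrf1 window (chr17:56304063-56304362) held 1. Both windows held 33 CG dinucleotides, against a median of 7 over all windows. Both E2F strings contain CG, and their share among windows equally rich in CG was not taken. The SP/KLF letters GGGCGG were in 10 of the 12 windows and in 35.7% of all windows, the NRF1 letters GCGCATG in 2 Dnmt1 windows and in 3.91% of all, and the ETS letters CCGGAAG in none of the 12 and in 8.86% of all. A match is a description of the letters and not evidence of binding.

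Dnmt1, which copies methylation at replication, was measured at 675, 676, 615 and 426 CPM in P28 ME induced at E10.5. In P28 WT it was at 188, 153, 235 and 237 CPM. Every ME library lay above every WT library, and ME replicate 4 was the lowest of its group. The means were 598 ± 118 and 203 ± 40.4 CPM (SD, n = 4), and the log2 fold change was 1.56 (SE 0.33, 95% interval 0.87 to 2.24, edgeR adjusted p = 0.00524). With induction at P0 Dnmt1 was at 317, 315, 441 and 402 CPM. These libraries also lay above all WT libraries, with a log2 fold change of 0.86 (95% interval 0.19 to 1.53). EdgeR over all 24 libraries did not call it (adjusted p = 0.137). It was called by edgeR on the 8 libraries compared (adjusted p = 0.000732) and by limma voom (adjusted p = 0.00513). Those fits also called more of all genes, as given above.

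Dnmt1 in RLT Vav Txp ME stood at 373 CPM in replicate 1 and at 172, 179 and 175 CPM in the others. Replicate 1 was alone above the WT range, and all 4 lay below every library of ME induced at E10.5. The log2 fold change against that group was -1.41 (SE 0.33, edgeR adjusted p = 0.00529), and against WT it was 0.14 (95% interval -0.52 to 0.81, adjusted p = 0.916). Replicate 1 also had the highest S phase sum of its group, 4980 against 2694 to 3209 CPM, and the highest macrophage sum, 2598 CPM. Its part in the result was not tested, but without it the value against WT was -0.21 and Dnmt1 was still called lower against ME induced at E10.5. The macrophage and LSK marker shifts given above move with every RLT Vav Txp ME value, and their part was not tested.

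At P0, Dnmt1 measured 234, 238, 339.9 and 109 CPM in WT and 179, 117, 304 and 97.5 CPM in ME. The groups overlapped over most of their range, with a log2 fold change of -0.40 (95% interval -1.07 to 0.27, edgeR adjusted p = 0.615). From P0 to P28 it rose in ME by a log2 fold change of 1.78 (SE 0.33, adjusted p = 0.000773), whereas in WT the value was -0.18 (adjusted p = 0.815). The ME effect at P28 exceeded that at P0 by 1.96 on the log2 scale (SE 0.46, 95% interval 1.01 to 2.91, adjusted p = 0.0445). That call was close to the threshold: it was lost without both P0 libraries numbered 1 (1.97, adjusted p = 0.0721), with RLE scaling (1.86, adjusted p = 0.0647), with plain totals and without the low-count filter. Left out one at a time, only P0 WT replicates 1 and 4, P0 ME replicate 3 and P28 ME replicate 4 left it in place, for Dnmt1 and for Uhrf1 below (adjusted p up to 0.123 for each). Over all 6 groups the Dnmt1 means ran 598, 369, 230.4, 225, 203 and 174 CPM, for P28 ME induced at E10.5, P28 ME induced at P0, P0 WT, RLT Vav Txp ME, P28 WT and P0 ME, and the ranges of each pair of neighbours in that order overlapped.

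Uhrf1, the reader of half-methylated sites that recruits DNMT1, measured 406, 427, 380.5 and 281 CPM in P28 ME induced at E10.5. In P28 WT it measured 136, 149, 176 and 161 CPM. No ME library came near the WT range. The log2 fold change was 1.26 (SE 0.27, 95% interval 0.72 to 1.81, edgeR adjusted p = 0.00471), from 156 ± 17.1 to 374 ± 64.9 CPM (SD, n = 4). With induction at P0 the libraries read 184, 198, 264 and 266 CPM, between the other groups and apart from both. Neither difference was called by edgeR over all 24 libraries: 0.55 against WT (adjusted p = 0.235) and -0.71 against ME induced at E10.5 (adjusted p = 0.953). Both were called by edgeR on the 8 libraries compared (adjusted p = 0.00652 and 0.0242) and by limma voom (adjusted p = 0.0424 and 0.000308). Those fits also called more of all genes, as given above.

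Uhrf1 repeated the Dnmt1 layout in RLT Vav Txp ME, with 279.8 CPM in replicate 1 and 112, 101 and 112 CPM in the other libraries. The group fell against ME induced at E10.5 (log2 fold change -1.30, SE 0.27, edgeR adjusted p = 0.00183), and was at -0.04 against WT (95% interval -0.58 to 0.50, adjusted p = 0.978), or -0.52 without replicate 1. At P0 it read 164, 211, 298 and 143 CPM in WT and 142, 152, 217 and 153 CPM in ME, with a log2 fold change of -0.30 (adjusted p = 0.652). It rose from P0 to P28 in ME by 1.17 (SE 0.26, adjusted p = 0.00326). The difference of ME effects was 1.56 (SE 0.37, 95% interval 0.79 to 2.32, adjusted p = 0.0449), and its call was likewise lost without both P0 libraries numbered 1 (1.59, adjusted p = 0.0531) and with RLE scaling (1.47, adjusted p = 0.0647). In the order of group means (374, 228, 204, 166, 156 and 151 CPM, for P28 ME induced at E10.5, P28 ME induced at P0, P0 WT, P0 ME, P28 WT and RLT Vav Txp ME), only the first pair of neighbours had separate ranges.

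Dnmt3a (chr12:3806007-3914443, plus strand), a de novo methyltransferase, read 144, 125, 164 and 148 CPM in P28 ME induced at E10.5 and 82.9, 69.1, 98.3 and 98.4 CPM in P28 WT. The groups were apart. Its log2 fold change of 0.74 (SE 0.20, 95% interval 0.33 to 1.14, edgeR adjusted p = 0.016) was the smallest of the 4 called. The call was lost with plain library totals (0.61, adjusted p = 0.0814), with offsets for GC content and length (0.47, adjusted p = 0.066), and without P28 WT replicate 1 (0.66, adjusted p = 0.0765), P28 WT replicate 2 (0.59, adjusted p = 0.109) or ME replicate 3 (0.68, adjusted p = 0.0559). With induction at P0 it read 105, 100.3, 133 and 117 CPM, apart from WT by a small gap (log2 fold change 0.38, adjusted p = 0.275).

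RLT Vav Txp ME had the lowest Dnmt3a, at 84.6, 48.6, 64.7 and 74.4 CPM, and fell against ME induced at E10.5 by 1.09 (SE 0.20, edgeR adjusted p = 0.000636). Here replicate 1 was again the highest but stayed within the WT range. At P0 Dnmt3a read 150.3, 106, 151 and 89.4 CPM in WT and 210.1, 123, 174 and 136 CPM in ME, overlapping groups with a log2 fold change of 0.37 (95% interval -0.03 to 0.78, adjusted p = 0.399). Its means ran 161, 145, 124, 114, 87.2 and 68.1 CPM for P0 ME, P28 ME induced at E10.5, P0 WT, P28 ME induced at P0, P28 WT and RLT Vav Txp ME. Only P28 ME induced at P0 and P28 WT were neighbours with separate ranges. Its annotated exons share 133 bases (0.799%) with the antisense gene Dnmt3aos, and whether the counting used strand is not given in the sources used here.

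Dnmt3b (chr2:153649450-153687730, plus strand), the other de novo enzyme and the more abundant of the pair per kilobase, read 172, 185, 185 and 174 CPM in P28 ME induced at E10.5. In P28 WT it read 65.9, 84.7, 84.6 and 110.3 CPM. The ME libraries were tightly grouped (179 ± 6.85 CPM, SD, n = 4) and all above WT (86.4 ± 18.3 CPM), and the log2 fold change was 1.05 (SE 0.27, 95% interval 0.49 to 1.61, edgeR adjusted p = 0.0136). It was not called with plain library totals (0.92, adjusted p = 0.0532) and without P28 WT replicate 1 (0.89, adjusted p = 0.0758) or replicate 2 (0.98, adjusted p = 0.0636). With induction at P0 the values were 106, 121, 134 and 126 CPM, overlapping WT and below ME induced at E10.5. The differences were 0.50 (adjusted p = 0.312) and -0.56 (adjusted p = 1), not called by edgeR over all 24 libraries. Both were called by edgeR on the 8 libraries compared (adjusted p = 0.0204 and 0.0023) and by limma voom (adjusted p = 0.0303 and 0.00155). Those fits also called more of all genes, as given above.

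Dnmt3b in RLT Vav Txp ME read 83.0, 59.7, 51.8 and 61.2 CPM and fell against ME induced at E10.5 (log2 fold change -1.49, SE 0.28, edgeR adjusted p = 0.00081). P0 WT was widely spread, at 236, 153, 233 and 66.5 CPM, and P0 ME read 194, 91.6, 160.5 and 103 CPM. From P0 WT to P28 WT it fell by 1.00 on the log2 scale (SE 0.27, adjusted p = 0.0239), although P0 WT replicate 4 lay at the bottom of the P28 WT range. That call was lost with plain totals, without the low-count filter, and without P0 WT replicate 1 or 3 or P28 WT replicate 1, 2 or 3, with adjusted p between 0.0561 and 0.0925, and in a fit on the 8 WT libraries alone (0.202). The difference of ME effects was 1.38 (SE 0.38) and was not called by edgeR (adjusted p = 0.0781). It was called by DESeq2 (1.29, adjusted p = 0.0408), by limma voom (1.39, adjusted p = 0.0159), by edgeR with offsets for GC content and length (1.28, adjusted p = 0.0235) and without P0 WT replicate 4 (1.68, adjusted p = 0.00413). Group means ran 179, 172, 137, 122, 86.4 and 63.9 CPM, for P28 ME induced at E10.5, P0 WT, P0 ME, P28 ME induced at P0, P28 WT and RLT Vav Txp ME, with overlapping neighbours throughout.

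No TET gene was called between P28 groups by edgeR in the fit over all 24 libraries. Tet1 (chr10:62804570-62908996, minus strand), which oxidises methylcytosine and carries a CG-binding CXXC domain, read 31.7, 33.5, 47.4 and 34.5 CPM in P28 ME induced at E10.5 and 22.9, 28.7, 33.2 and 32.4 CPM in P28 WT. These overlapped, and the log2 fold change of 0.33 was not called (95% interval -0.30 to 0.95, edgeR adjusted p = 0.53). With induction at P0 Tet1 read 39.0, 34.5, 50.1 and 41.8 CPM, all above WT, with a value of 0.50 (adjusted p = 0.375) that edgeR called only on these 8 libraries alone (0.44, adjusted p = 0.0359).

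RLT Vav Txp ME had the lowest Tet1, at 19.8, 19.4, 13.0 and 31 CPM, all below ME induced at E10.5 (log2 fold change -0.82, SE 0.31, edgeR adjusted p = 0.0625, not called). Limma voom called it (-0.97, adjusted p = 0.00341), as did edgeR on these 8 libraries alone (adjusted p = 0.0425), with offsets for GC content and length (0.0464) and without RLT Vav Txp ME replicate 4 (0.0388). Of all genes, limma voom called 3917 higher and 4195 lower of 23059, and the fit on the 8 libraries 3276 and 2670 of 18808. The main fit called 1959 and 2163 of 23059. At P0 Tet1 read 36.2, 28.9, 24.3 and 12.9 CPM in WT and 42.1, 15.4, 38.6 and 19.9 CPM in ME, overlapping groups with a log2 fold change of 0.18 (adjusted p = 0.838). Means ran 41.3, 36.8, 29.3, 29, 25.6 and 20.8 CPM for P28 ME induced at P0, P28 ME induced at E10.5, P28 WT, P0 ME, P0 WT and RLT Vav Txp ME, and neighbours overlapped throughout.

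Tet2 (chr3:133463679-133545139, minus strand), the TET gene most often lost in human clonal blood disorders, was the flattest of the 7 at P28. It read 16.7, 17.7, 25.7 and 20.2 CPM in ME induced at E10.5, 22.2, 16.0, 20.6 and 18.9 CPM in WT, 19.2, 19.9, 25.3 and 17.9 CPM in ME induced at P0, and 14.4, 19.0, 18.6 and 30.9 CPM in RLT Vav Txp ME. All 4 groups overlapped, with means between 19.4 and 20.8 CPM. The log2 fold change of ME induced at E10.5 against WT was 0.05, with a 95% interval of -0.47 to 0.57 that leaves room for moderate change either way, and its sign turned with the scaling (-0.03 with RLE factors and -0.08 with plain totals). At P0 it read 37.4, 22.8, 25.6 and 16.3 CPM in WT and 29.2, 23.0, 40.9 and 29.8 CPM in ME. In ME the P28 group was lower than the P0 group by -0.61 (edgeR adjusted p = 0.0915, not called), a difference that DESeq2 (adjusted p = 0.0393) and limma voom (adjusted p = 0.0114) called. The order of all 6 means was 30.7, 25.5, 20.8, 20.6, 20.1 and 19.4 CPM (P0 ME, P0 WT, RLT Vav Txp ME, P28 ME induced at P0, P28 ME induced at E10.5 and P28 WT), with overlapping neighbours.

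Tet3 (chr6:83362373-83459084, minus strand), the TET enzyme of the zygote and of many differentiated tissues, read 33.2, 30.4, 35.7 and 31.3 CPM in P28 ME induced at E10.5 and 29.6, 34.4, 43.4 and 34.8 CPM in P28 WT. The ME values lay inside the WT range, and the log2 fold change was -0.12 (95% interval -0.58 to 0.33, edgeR adjusted p = 0.772). ME induced at P0 was as narrow, at 31.2, 34.2, 34.1 and 33.4 CPM. RLT Vav Txp ME read 30.7, 22.1, 17.6 and 22.5 CPM, with 3 of 4 libraries below all others. Against WT that was -0.61 (adjusted p = 0.136), not called by edgeR but called by limma voom (-0.69, adjusted p = 0.0219) and with plain totals (-0.72, adjusted p = 0.0406). Against ME induced at E10.5, Tet3 was called by limma voom (-0.59, adjusted p = 0.00493) and by edgeR without RLT Vav Txp ME replicate 1 (-0.66, adjusted p = 0.0441). Of all genes there, limma voom called 3917 higher and 4195 lower of 23059. The fit without that replicate called 2378 higher and 2834 lower of 24207. P0 WT read 41.7, 36, 45.0 and 84.1 CPM, with replicate 4 far above, and P0 ME read 43.3, 27.9, 40.3 and 42.8 CPM. The 6 means ran 51.7, 38.6, 35.6, 33.2, 32.6 and 23.2 CPM for P0 WT, P0 ME, P28 WT, P28 ME induced at P0, P28 ME induced at E10.5 and RLT Vav Txp ME, and neighbours overlapped.

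DNMT1 and UHRF1 act at replication forks, and their genes are known to be transcribed with S phase genes. In a list of 14 S phase and mitosis genes, which includes Mki67, Top2a and the Mcm helicase subunits, many genes moved with the methylation genes. In P28 ME induced at E10.5 against WT, 10 of 14 rose, beside 7.82% of all genes (median log2 fold change 0.91, beside -0.10 over all genes). In RLT Vav Txp ME against that group, 9 of 14 fell, beside 9.38% of all genes (median -0.78), and in ME from P0 to P28, 8 of 14 rose, beside 9.79% (median 0.97). For the difference of ME effects, 3 of 14 were called higher, beside 0.468% of all genes (median 1.18). For ME induced at P0 against WT, edgeR called 0 of 14 (4 higher and 1 lower at an unadjusted p under 0.05), and against ME induced at E10.5 it called 0 (11 lower at an unadjusted p under 0.05). The share of all genes at that unadjusted p is not given here, so these counts have no background beside them. The summed level of the list was 4893 to 6758 CPM in P28 ME induced at E10.5, above the 2765 to 3581 CPM of P28 WT without overlap. The replication genes Pcna and Pclaf, counted below among the maintenance partners and not in this list, did not rise with it. Pcna averaged 284 CPM in P28 WT, 265 in ME induced at E10.5 and 218 in ME induced at P0. Pclaf averaged 257, 223 and 154 CPM in the same groups.

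Across the 24 libraries, the log2 level of Uhrf1 correlated with the log2 S phase sum at Pearson's r = 0.948 and that of Dnmt1 at 0.830. The values were 0.540 for Dnmt3b, 0.376 for Dnmt3a, 0.339 for Tet1, 0.0726 for Tet3 and -0.253 for Tet2. The points share libraries, scaling and group structure, so these are descriptions.

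**Figure D3:**
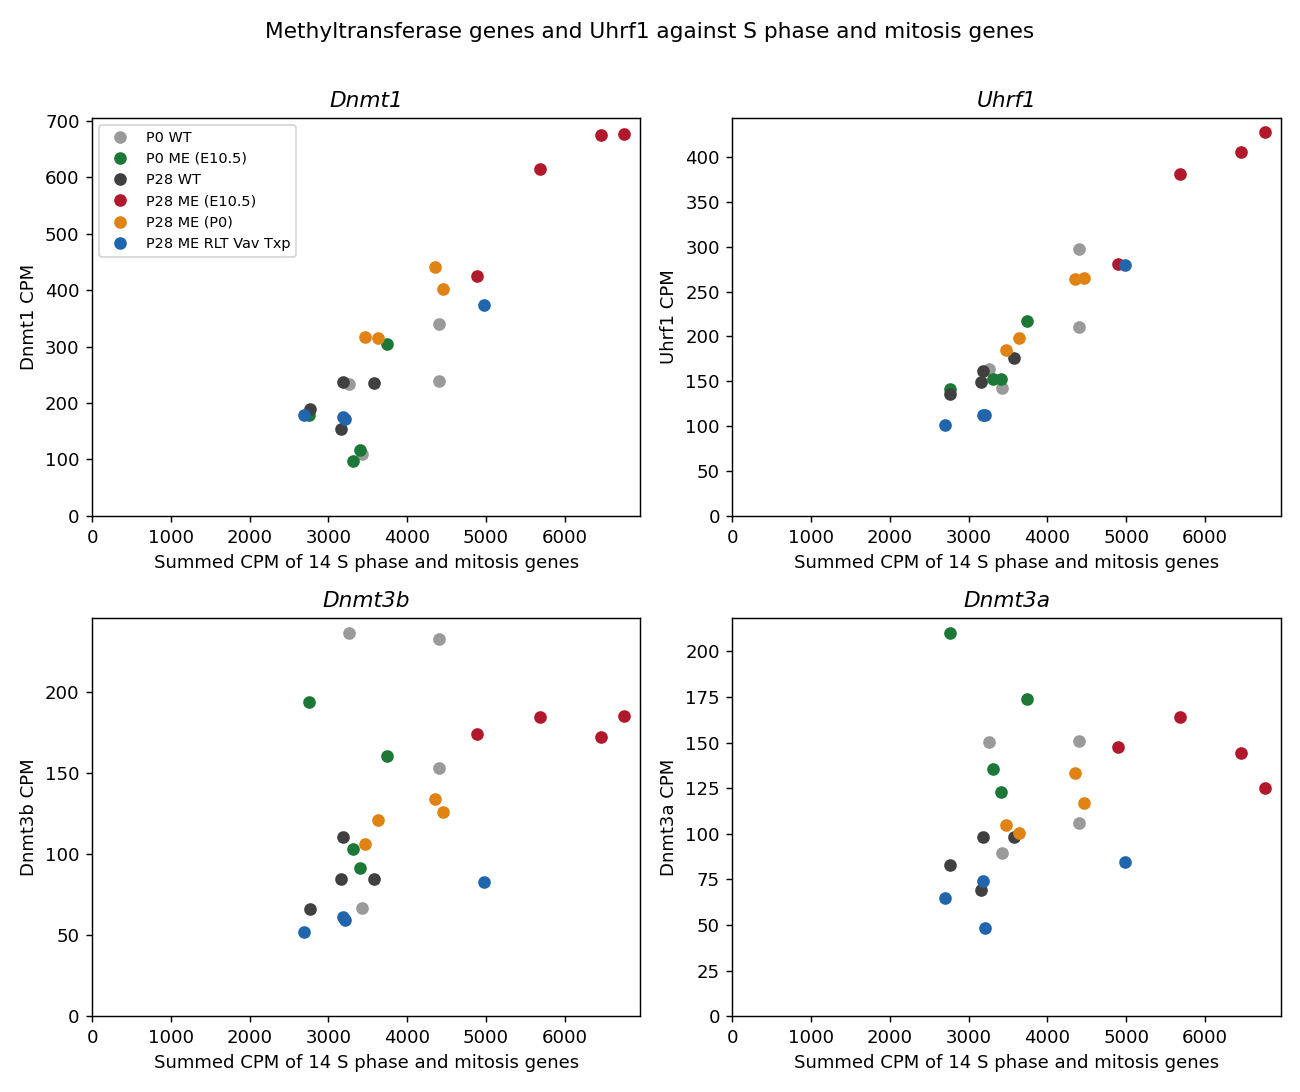
The panels plot the CPM of Dnmt1, Uhrf1, Dnmt3b and Dnmt3a against the summed CPM of 14 S phase and mitosis genes in the same library, on linear axes from 0, with 24 points coloured by group. Uhrf1 lies closest to a rising line, Dnmt1 rises with more scatter, and the P0 libraries of Dnmt3a and Dnmt3b lie well off any line.

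Set per 1000 CPM of the S phase sum, a scale chosen after the data were seen, Dnmt1 and Uhrf1 lay apart from WT in both P28 groups with ME alone. Dnmt1 stood at 99.9 ± 9.24 in ME induced at E10.5, 92.4 ± 6.24 in ME induced at P0, 64.1 ± 11.1 in WT and 62.5 ± 10.1 in RLT Vav Txp ME (SD, n = 4). Uhrf1 stood at 62.6 ± 3.94, 57.0 ± 3.67, 49.0 ± 1.43 and 41.0 ± 10.2. In ME induced at E10.5 against WT the groups were apart for both, with log2 differences of 0.65 for Dnmt1 and 0.35 for Uhrf1. In ME induced at P0 against WT they were also apart, by 0.54 and 0.22. Each of these 4 had an exact permutation p of 0.0286, the smallest that 4 against 4 can give, and an adjusted p of 0.089 over 56 tests, so none passed the correction. The share of all genes apart on this scale was not taken. The S phase sum was itself apart between ME induced at E10.5 and WT, as given above. The groups overlapped between induction at P0 and at E10.5, with differences of -0.11 for Dnmt1 (exact permutation p = 0.286) and -0.14 for Uhrf1 (exact permutation p = 0.114). They also overlapped between RLT Vav Txp ME and WT, at -0.03 and -0.29. Dnmt3a (-0.16) and Dnmt3b (0.17) overlapped between ME induced at E10.5 and WT on that scale, while Tet3 (-1.01) and Tet2 (-0.86) were lower and apart, at the same exact permutation p and adjusted p. In CPM these TET genes differed by -0.12 and 0.05, and the S phase sum was higher. Over the 8 genes of the list without the Mcm subunits, the differences from WT were 0.87 for Dnmt1, 0.57 for Uhrf1 and -0.80 for Tet3, apart (adjusted p = 0.107, exact permutation test). On that sum Tet2 (-0.65) overlapped WT, as did Dnmt3b (0.39).

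Ratios of 2 members within a library do not depend on how libraries are scaled. The log2 ratio of Uhrf1 to Dnmt1 per kilobase was 0.06, 0.13, 0.10 and 0.19 in P28 ME induced at E10.5 and 0.32, 0.75, 0.37 and 0.24 in P28 WT, lower in every ME library (difference -0.30). It was 0.01, 0.12, 0.05 and 0.19 with induction at P0 (difference from WT -0.33). Both sets of groups were apart. At P0 the ME values were 0.46, 1.17, 0.31 and 1.44, all above the P28 values of ME induced at E10.5 (P28 minus P0 -0.72). Over 32 ratio tests the exact permutation p was 0.0286 for each of these, the smallest possible, and 0.153 after adjustment, so none passed.

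The log2 ratio of Dnmt3b to Dnmt3a per kilobase was 1.96, 2.27, 1.88 and 1.94 in P28 ME induced at E10.5 and 1.59, 1.28, 1.59 and 1.31 in P0 ME, groups that were apart by 0.57 (exact permutation p = 0.0286, adjusted p = 0.153). Against P28 WT (1.37, 2.00, 1.49 and 1.87) it overlapped. The log2 ratio of Tet1 to Tet2 stood at 1.05, 1.04, 1.01 and 0.90 in P28 ME induced at E10.5 and at 0.58, 0.15, -0.40 and 0.13 in RLT Vav Txp ME. Every RLT Vav Txp ME library was lower (difference -0.88, exact permutation p = 0.0286, adjusted p = 0.153). In P0 ME the same ratio was 0.65, -0.45, 0.04 and -0.46, below P28 ME induced at E10.5 by 1.05 with the same p values.

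**Figure D4:**
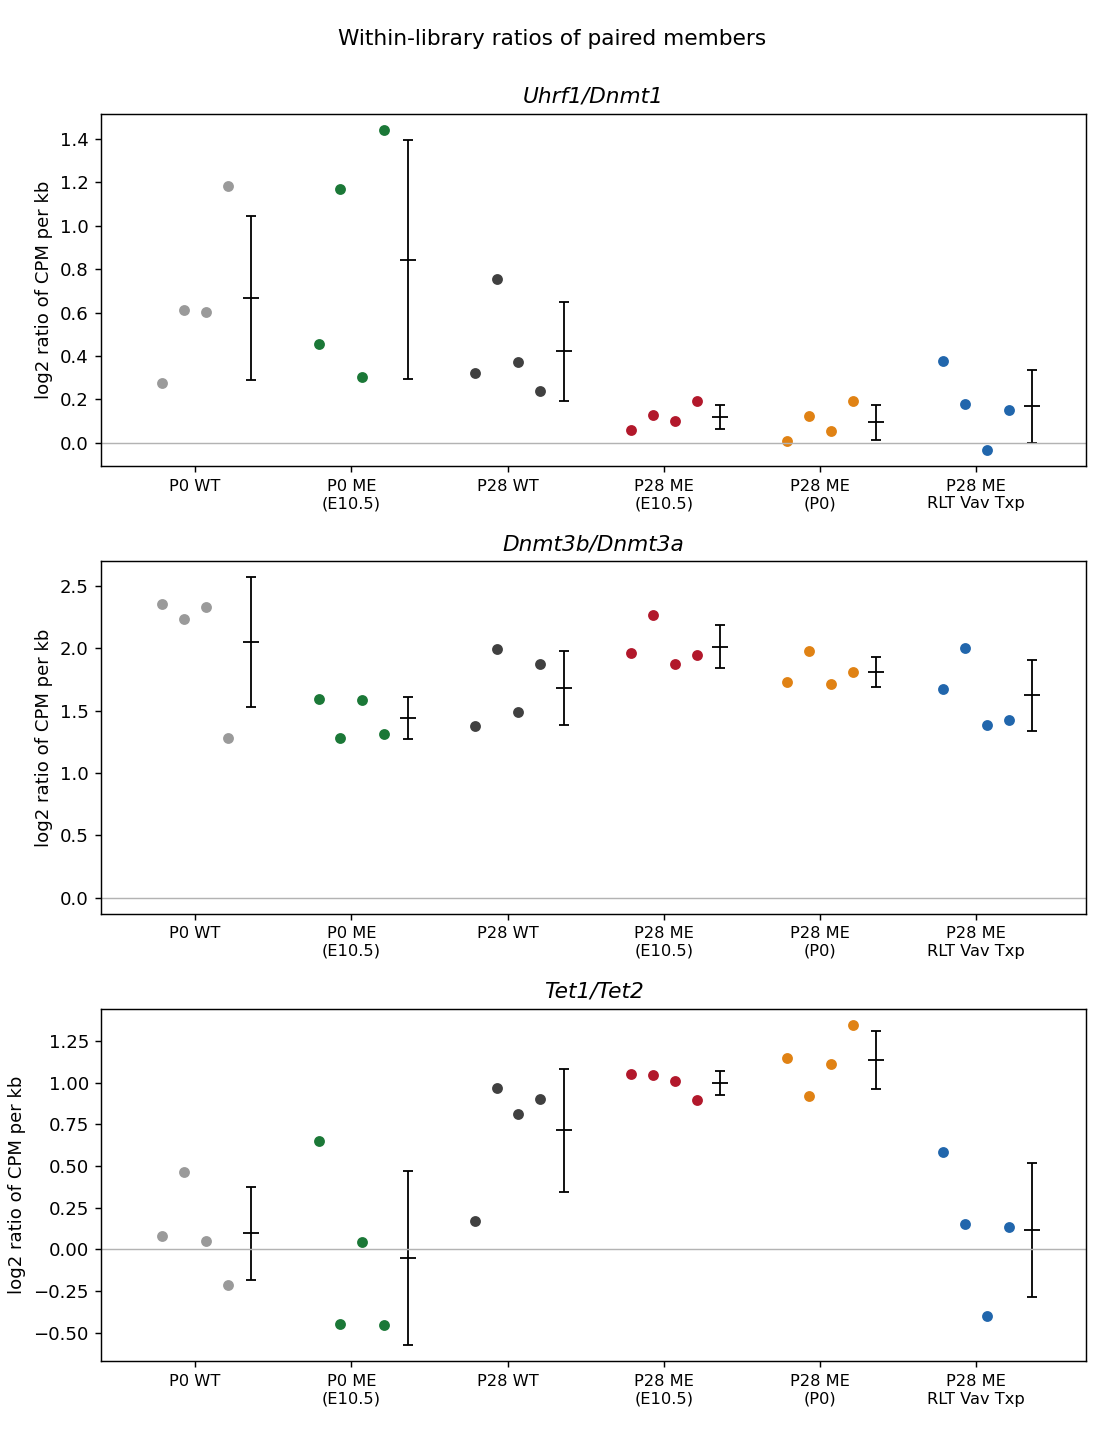
Log2 ratios of 2 genes, in CPM per kilobase, for each library (points), with the mean ± SD of each group of 4 beside them. Uhrf1 over Dnmt1 sits between 0.06 and 0.19 in P28 ME induced at E10.5 and between 0.24 and 0.75 in P28 WT, and Tet1 over Tet2 is spread from -0.40 to 0.58 in RLT Vav Txp ME.

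The genes most like each member over the 24 libraries were sought among 9687 genes whose log2 CPM averaged 3 or more. Unnamed genes and predicted gene models (names of Gm plus digits, or with Rik) were left out. Dnmt1 was closest to Sart3 (r = 0.970), the helicase subunit Mcm4 (0.963) and the polymerase subunit Pola1 (0.957), and Uhrf1 to the nuclear pore gene Nup62 (0.963), the condensin gene Ncaph (0.956) and the importin Ipo5 (0.951). Dnmt3a was closest to the amino acid transporter Slc38a1 (0.937), Notch1 (0.906) and Tmem131 (0.886), and Dnmt3b to the laminin gene Lamc1 (0.915), Ap2a2 (0.913) and Trim35 (0.909). Tet1 was closest to Znrf1 (0.889), Tet3 to Cnrip1 (0.861) and Tet2 to Tmx3 (0.771), with Parp8 (0.875) and Gab1 (0.860), Egfl7 (0.859) and Sin3b (0.856), and Arid3b (0.758) and Plin3 (0.723) next in the same order. Among the members, Dnmt1 and Uhrf1 had r = 0.878, and 0.811 after group means were removed. Dnmt3a and Dnmt3b had r = 0.861, and 0.765 after group means were removed. These are descriptions over libraries that share group structure and depth.

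The other genes of the pathway were taken from 6 lists, of which 49 genes were tested. In P28 ME induced at E10.5 against WT, 12 of the 49 rose and 0 fell (12.3% of all genes were called and 7.82% rose), with a median log2 fold change of 0.40 beside -0.10 over all genes. In RLT Vav Txp ME against ME induced at E10.5, 20 fell and 4 rose (17.9% of all genes were called and 9.38% fell), with a median of -0.36 beside 0.12. In ME from P0 to P28, 12 rose and 2 fell (median 0.41), where 18.2% of all genes were called. For the difference of ME effects 5 were higher and 0 lower (median 0.40), where 0.72% of all genes were called. In WT from P0 to P28, 3 rose and 4 fell (7.68% of all genes were called). Against WT, 2 rose and 0 fell in RLT Vav Txp ME, near the 4.12% of all genes called there. For P0 ME against WT, ME induced at P0 against WT and ME induced at P0 against ME induced at E10.5, edgeR called 0 of the 49, with 3 higher and 8 lower, 13 higher and 2 lower, and 0 higher and 6 lower at an unadjusted p under 0.05. The unadjusted counts again have no share of all genes beside them.

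Of the 8 maintenance partners, 4 rose in P28 ME induced at E10.5 against WT and 5 fell in RLT Vav Txp ME against ME induced at E10.5. The first 4 were Lig1, the ligase that joins Okazaki fragments (log2 fold change 1.00, edgeR adjusted p = 0.00968), Usp7, a deubiquitinase that protects UHRF1 and DNMT1 (0.91, adjusted p = 0.0104), Cdca7 (0.67, adjusted p = 0.00647), and Hells, a remodeller that works with CDCA7 (0.66, adjusted p = 0.0271). Cdca7 (-0.78), Lig1 (-0.76), Hells (-0.73) and Usp7 (-0.69) fell most in RLT Vav Txp ME, with the groups of Lig1 and Usp7 overlapping. Those of Usp7 also overlapped between ME induced at E10.5 and WT. Lig1 (1.57, adjusted p = 0.0321), Hells (1.21, adjusted p = 0.0413) and Cdca7 (1.14, adjusted p = 0.017) were also called higher for the difference of ME effects.

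Of the 7 de novo partners, 3 rose in P28 ME induced at E10.5 against WT: Setd2, the H3K36 methyltransferase whose mark DNMT3A and DNMT3B read (0.97, edgeR adjusted p = 0.00863), the KRAB corepressor Trim28 (0.76, adjusted p = 0.00752) and Kdm2b, which binds unmethylated CG islands (0.70, adjusted p = 0.0412). When RLT Vav Txp ME was set against ME induced at E10.5, 5 fell and 1 rose. Kdm2b (-0.92), Setd2 (-0.81) and Trim28 (-0.80) were among those that fell, although the groups of Trim28 overlapped (158 to 321 and 312 to 415 CPM). Zfp57, a zinc finger gene that keeps imprints, rose by 3.14 (edgeR adjusted p = 0.0402), from 0.838 to 7.38 CPM. Of the 7 readers of methylated CG, Mbd3 rose in P28 ME induced at E10.5 against WT (0.64, adjusted p = 0.0374), and Mbd1 (-0.72) and Mbd3 (-0.70) fell in RLT Vav Txp ME.

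Among 11 active demethylation and repair genes, only Tdg, the glycosylase that removes the oxidised bases TET enzymes make, was called in P28 ME induced at E10.5 against WT. It rose from 37.6 to 68.8 CPM (log2 fold change 0.87, edgeR adjusted p = 0.00375). In WT it fell from P0 to P28, from 71.5 to 37.6 CPM (-0.93, adjusted p = 0.00157). Against ME induced at E10.5, 3 fell in RLT Vav Txp ME, among them Neil3 (-0.94), and Gadd45g rose by 2.07 (adjusted p = 0.007), from 2.62 to 11.0 CPM. Of the 8 tested TET cofactor and metabolism genes, edgeR called 0 in P28 ME induced at E10.5 against WT (2 higher and 2 lower at an unadjusted p under 0.05). In RLT Vav Txp ME against ME induced at E10.5, Cxxc5, a CG-binding partner of TET2, fell by 0.94 (adjusted p = 0.000476), and D2hgdh (-0.71) and Idh2 (-0.53) fell. Idh1, which makes 2-oxoglutarate, rose by 0.70, with overlapping groups (72.9 to 124 and 53.9 to 81.0 CPM). Of the 8 methyl donor genes, Mtr, methionine synthase, rose in P28 ME induced at E10.5 against WT (1.08, adjusted p = 0.00483), as did the serine hydroxymethyltransferases Shmt1 (0.79, adjusted p = 0.00878) and Shmt2 (0.69, adjusted p = 0.0199).

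**Figure D5:**
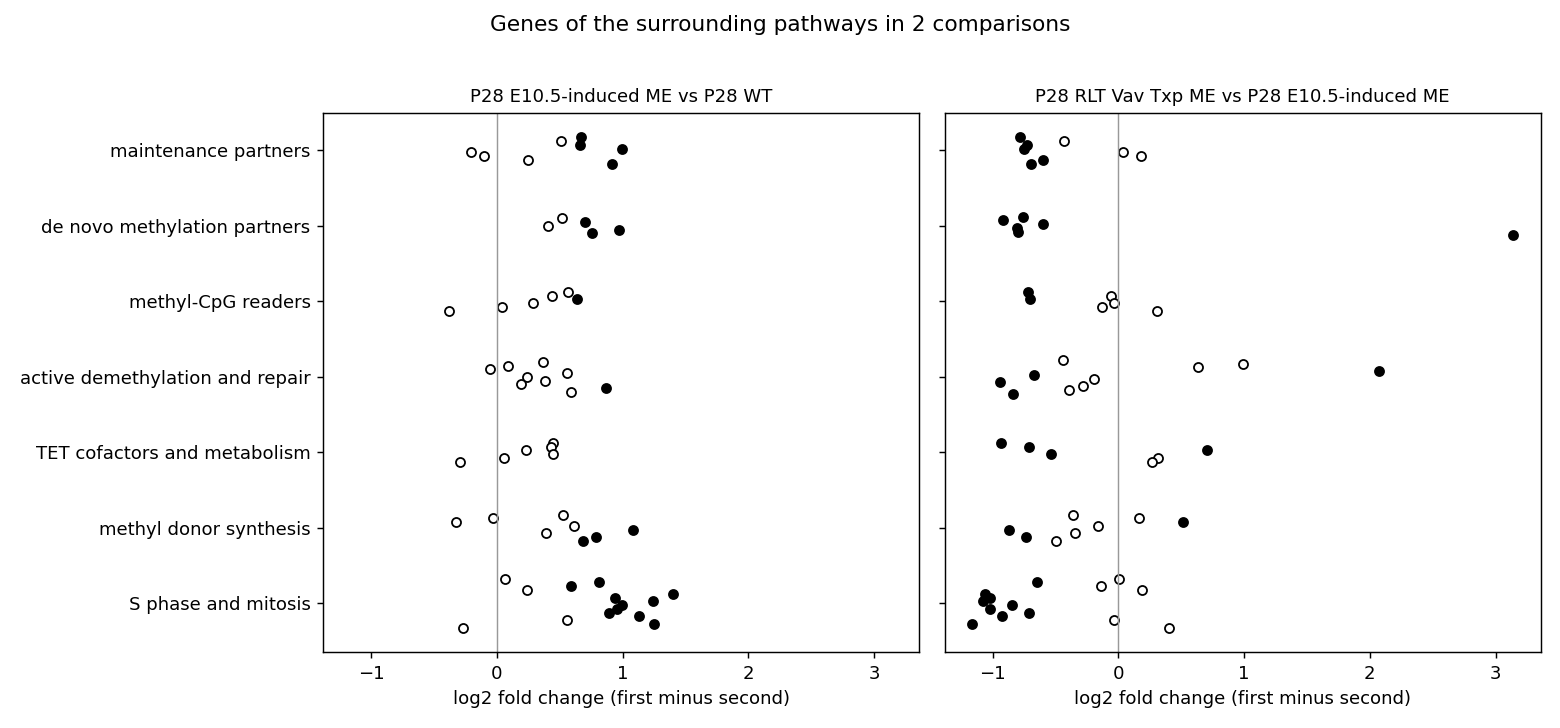
Log2 fold changes of the pathway lists and the S phase and mitosis list in P28 ME induced at E10.5 against P28 WT and in RLT Vav Txp ME against ME induced at E10.5, 1 point per gene, filled where called; of 63 tested genes, 7 and 5 with both group means under 5 CPM are not drawn. The S phase list has a median of 0.91 in the first and -0.78 in the second comparison.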

How the data were processed

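Raw read counts per gene were deposited by the authors as 1 table; per the submitters' processing notes, reads were aligned with STAR 2.7.9a and counted with featureCounts 2.0.3 (Subread) against GRCm38. The labels' protocols name the RNeasy Plus kit (Qiagen) for RNA and Clontech reagents for libraries. Repeats of 168 gene IDs were dropped (287 of 55774 entries). Counts were fitted with edgeR 4.0.16 (R 4.3.3; TMM, robust quasi-likelihood, minimum count 10, 6 group means over 24 libraries, 18 residual degrees of freedom), with Benjamini-Hochberg adjustment over 23059 genes. limma 3.58.1 (voom) and DESeq2 1.42.0 were alternatives. Ratios were tested by two-sided exact permutation. Exon lengths came from GENCODE M21, which matched 55227 IDs, and promoters from RefSeq. The model was tested on simulated data. The members and gene lists were chosen with earlier results of these data known. Named pathway genes are at most 4 called genes per list and comparison, by size of log2 fold change; likeness names the 3 highest correlations per member.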

Additional observations from a re-analysis of the deposited data

Results flagged for a closer look

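In RLT Vav Txp ME, 1 library stood apart for both maintenance genes: replicate 1 was the highest, and its gap to the next library was 0.962 of the group's whole range for Dnmt1 and 0.937 for Uhrf1. In P0 ME, replicate 3 was the highest for Uhrf1 at 217 CPM, with a gap of 0.851 of the range. The limit for 4 libraries was passed in 3 of 42 sets of gene and group, and chance alone passes it in about 1 in 20, or 2.1 of 42. The ME effect at P28 minus that at P0 was called by edgeR for Dnmt1 (1.96) and Uhrf1 (1.56), a difference tested directly as an interaction.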

How the results depend on the processing

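Over all alternatives, including each library left out in turn, 1071 of 1190 refits of the members' log2 fold changes kept direction and side of the threshold, 50 lost and 29 gained a call, and 40 turned in sign. Dnmt1 and Uhrf1 in P28 ME induced at E10.5 against WT (1.21 to 1.62 and 1.13 to 1.31; 1.39 to 1.69 and 1.16 to 1.39 with a library left out) and in ME from P0 to P28, and all 4 methylation genes in RLT Vav Txp ME against ME induced at E10.5, were called in every refit. The 288 refits of the ratios were not tested again. Their outcome was fixed in advance. Raw counts leave a difference of log2 ratios unchanged, and leaving out a library cannot move a group mean by as much as the group SD. Groups that are apart also keep their sign. These refits therefore do not show how firm the ratios are.

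The count of members called moved by over 1.5 times as follows. With plain totals it was 2 in P28 ME induced at E10.5 against WT, 1 in RLT Vav Txp ME against WT, 0 in P28 WT against P0 WT and 0 for the difference of ME effects. limma voom gave 3 and 4 for ME induced at P0 against WT and against ME induced at E10.5, and 1 for RLT Vav Txp ME against WT. There it also called more of all genes than the main fit, as given above. Fits on the compared groups alone gave 4 and 3 for the first pair, 0 for P28 WT against P0 WT and 1 for the difference of ME effects. Without the filter on low counts the last comparisons gave 0 and 0, and RLE scaling and leaving out both P0 libraries numbered 1 (added after seeing the data) each gave 0 for the difference of ME effects. Smaller shifts included 3 with offsets in P28 ME induced at E10.5 against WT (from 4). RLT Vav Txp ME against ME induced at E10.5 gave 6 with voom, and 5 with the compared groups alone and with offsets (from 4). Over all genes there, voom called 3917 higher and 4195 lower of 23059, and the compared groups alone 3276 and 2670 of 18808. Offsets called 1038 and 2431 of 23059, beside 1959 and 2163 in the main fit. ME from P0 to P28 gave 3 with voom and DESeq2 (from 2). The difference of ME effects gave 3 with voom, DESeq2 and offsets (from 2). Of all genes there, these called 437, 336 and 616 higher, beside 108 in the main fit. With 1 library left out the counts were 2 to 4 in P28 ME induced at E10.5 against WT, 4 to 5 in RLT Vav Txp ME against ME induced at E10.5, 0 to 2 in P28 WT against P0 WT and 0 to 3 for the difference of ME effects. The cause was not tested.

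Replicate numbers gave no steady pairing of libraries. Of 40 same-number correlations of deviations, 14 exceeded 0.1 (median 0.0295, from -0.394 to 0.66), and the best match had its own number in 25 of 80 checks. The P0 libraries numbered 1 stood apart in both groups, as given above. With a replicate block over the 20 numbered libraries, Dnmt3b in P28 WT against P0 WT was at -0.92 (edgeR adjusted p = 0.0563), which made that count 0, and no other count changed.

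Signs turned only in uncalled values, and not all of these were near 0. In the main fit, Tet3 was at 0.30 for the difference of ME effects. For P28 WT against P0 WT, Tet1 was at 0.20 and Dnmt1 at -0.18. Tet2 in P28 ME induced at E10.5 against WT was -0.033 with RLE, DESeq2 and the compared groups alone, -0.081 with plain totals, -0.027 with 10 counts in 12 libraries and -0.147 with GC and length offsets. Tet2 in RLT Vav Txp ME against WT was -0.0049 (plain totals) and -0.0074 (offsets), and in ME induced at P0 against WT -0.084 (offsets). Dnmt1 in RLT Vav Txp ME against WT was -0.042 (voom) and -0.024 (offsets). For the difference of ME effects Tet1 was -0.050 (plain totals) and Tet3 -0.0068 (voom). Tet1 in P0 ME against WT was -0.022 (offsets), and Dnmt3a in ME from P0 to P28 was 0.013 without both P0 libraries numbered 1. With 1 library left out the ranges that crossed 0 were, for Tet1, -0.072 to 0.35 in P0 ME against WT, -0.029 to 0.41 from P0 to P28 in WT and -0.069 to 0.39 for the difference of ME effects. For Tet2 they were -0.091 to 0.16 (ME induced at E10.5 against WT), -0.028 to 0.15 (ME induced at P0 against WT), -0.066 to 0.18 (against ME induced at E10.5), -0.18 to 0.24 (RLT Vav Txp ME against WT) and -0.18 to 0.19 (against ME induced at E10.5). For Tet3 they were 0.018 to -0.19 and -0.0083 to 0.072 for ME induced at P0, and -0.0070 to 0.43 for the difference of ME effects. For Dnmt1 they were -0.21 to 0.26 (RLT Vav Txp ME against WT) and -0.43 to 0.096 (P28 WT against P0 WT), for Uhrf1 -0.52 to 0.12 (RLT Vav Txp ME against WT) and for Dnmt3a -0.24 to 0.014 (ME from P0 to P28).

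Scaling moved the median of all genes by up to 0.089 (RLE) and 0.2 (plain totals). The share of calls that were higher in P28 ME induced at E10.5 against WT was 63.8%, 52.2% with RLE and 33.3% with plain totals. For the difference of ME effects that share was 65.1%, 43.0% and 11.0%.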
